A study of Mus musculus with 12 samples.

Results

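The 10 genes described here, Glul, Oat, Rhbg, Slc1a2, Axin2, Tbx3, Lgr5, Cyp2e1, Cyp1a2 and Lect2, mark the hepatocytes around the central vein of the mouse liver lobule. They were chosen by gene symbol, and all 10 were found among the 16970 genes measured by RNA sequencing of polyA RNA from whole liver in 12 libraries. All 10 passed the filter on low values, which kept 10805 genes with at least 1 FPKM (a fragment count scaled to gene length and library depth) in at least 3 libraries.

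The study gave hyodeoxycholic acid (HDCA), a bile acid, to mice with cholestasis, the impaired flow of bile. The group labelled MDR_H received 100 mg/kg HDCA for 21 days, and the group labelled MDR was its untreated counterpart. The group labelled BDL_H had the bile duct tied for 7 days and received 100 mg/kg HDCA for 4 days, beginning 3 days after surgery. The group labelled BDL had the ligation alone. Each group held 3 libraries, and no healthy or sham-operated group was part of this comparison. The study description names Abcb4-/- mice, 60 days old at the start, beside the ligated ones. MDR and MDR_H were taken as those mice, although no library label names Abcb4. No library label names HDCA either, and MDR_H and BDL_H were taken as the groups that received it. Whether the 3 libraries of a group stem from different mice is not stated. The p-values below rest on the variation among them, pooled over all groups, part of which may be technical. Strain, sex, diet and dosing vehicle were not given in the sources used here.

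Hepatocytes differ along the axis of blood flow from the portal to the central vein. Endothelial cells of the central vein release Wnt ligands and R-spondin, and β-catenin signalling in the nearest hepatocytes keeps a pericentral programme on and a periportal programme off. The innermost hepatocytes capture the ammonium that the urea cycle upstream has left and fix it as glutamine. A wider ring of pericentral cells holds the P450 enzymes that oxidise ethanol, drugs and other foreign compounds.

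On GRCm38, with the GENCODE M21 annotation, the 10 genes lie on 9 chromosomes. Glul (ENSMUSG00000026473) spans chr1:153899944-153909723, Oat (ENSMUSG00000030934) chr7:132557478-132576398, Rhbg (ENSMUSG00000104445) chr3:88242874-88254709 and Slc1a2 (ENSMUSG00000005089) chr2:102658659-102790784. Axin2 (ENSMUSG00000000142) spans chr11:108920349-108950783, Tbx3 (ENSMUSG00000018604) chr5:119670669-119684724 and Lgr5 (ENSMUSG00000020140) chr10:115450311-115587780. Cyp2e1 (ENSMUSG00000025479) spans chr7:140763739-140774987, Cyp1a2 (ENSMUSG00000032310) chr9:57676937-57683703 and Lect2 (ENSMUSG00000021539) chr13:56542464-56548502. All are protein-coding, and values were given per gene with no split by exon. Rhbg shares 1190 of its 1937 exon bases with Gm38392, a gene model on the same strand that has no row in the table, so reads of the pair cannot be separated. Glul shares 116 exon bases with Teddm2 on the opposite strand, and Axin2, Slc1a2 and Tbx3 each share between 115 and 209 exon bases with an antisense transcript.

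The 250 bases before the transcription start are shown for 5 genes because the results below set Glul, Oat and Axin2, which were higher in MDR livers, beside the P450 genes Cyp2e1 and Cyp1a2, which did not pass the test. The windows are RefSeq's on GRCm38.p6, read 5′ to 3′ on the strand of the gene. They are chr1:153899679-153899928 (plus strand) for Glul, chr7:132576399-132576648 (minus strand) for Oat, chr11:108920099-108920348 (plus strand) for Axin2, chr7:140763569-140763818 (plus strand) for Cyp2e1 and chr9:57683656-57683905 (minus strand) for Cyp1a2. Capitals mark CTTTGA or its reverse complement TCAAAG, the core letters bound by TCF/LEF factors, the DNA-binding partners of β-catenin.
Glul: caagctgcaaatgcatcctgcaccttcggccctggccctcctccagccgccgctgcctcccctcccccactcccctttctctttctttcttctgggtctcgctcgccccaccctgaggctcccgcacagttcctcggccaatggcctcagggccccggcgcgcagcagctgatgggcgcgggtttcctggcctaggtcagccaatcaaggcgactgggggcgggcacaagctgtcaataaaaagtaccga
Oat: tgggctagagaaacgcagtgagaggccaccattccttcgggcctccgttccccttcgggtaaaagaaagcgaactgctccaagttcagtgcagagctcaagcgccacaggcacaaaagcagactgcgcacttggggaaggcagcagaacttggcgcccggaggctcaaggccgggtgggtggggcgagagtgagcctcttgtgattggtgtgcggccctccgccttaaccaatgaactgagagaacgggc
Axin2: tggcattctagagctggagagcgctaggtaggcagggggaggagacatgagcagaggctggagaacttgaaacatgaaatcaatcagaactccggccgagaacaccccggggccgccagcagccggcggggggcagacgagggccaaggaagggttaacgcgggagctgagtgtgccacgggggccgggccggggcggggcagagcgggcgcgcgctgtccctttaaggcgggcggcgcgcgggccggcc
Cyp2e1: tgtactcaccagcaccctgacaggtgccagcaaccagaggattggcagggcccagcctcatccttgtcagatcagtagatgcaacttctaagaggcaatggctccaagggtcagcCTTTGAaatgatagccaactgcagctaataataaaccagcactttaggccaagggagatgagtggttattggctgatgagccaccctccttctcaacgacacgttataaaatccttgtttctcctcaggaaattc
Cyp1a2: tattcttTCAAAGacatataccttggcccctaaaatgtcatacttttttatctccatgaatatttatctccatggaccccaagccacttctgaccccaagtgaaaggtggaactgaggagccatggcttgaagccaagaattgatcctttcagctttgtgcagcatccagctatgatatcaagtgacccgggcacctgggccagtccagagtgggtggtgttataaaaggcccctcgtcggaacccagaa
Both strands were searched for CTTTGA in the 7 windows that RefSeq's table holds for these genes, and 4 of the 7 (57.14%) had a match. Among all 32851 windows of the same length 13.83% had one, and 11.29% of the 16764 windows whose gene was measured had one. Matches were found in Cyp2e1, Cyp1a2, Lect2 and Slc1a2, and no match was found in Glul, Oat or Axin2. The Slc1a2 window lies at chr2:102706188-102706437 (plus strand), inside the gene span given above, and holds 2 matches. The Cyp2e1 and Cyp1a2 windows, placed by RefSeq, lie partly inside the GENCODE spans given above. G and C made up 44.8 to 48.8% of the bases in the windows with a match and 60 to 69.2% in the members' windows without. Their median was 58.4% in windows of measured genes, and the part of base composition in the matches was not tested. The core of the xenobiotic response element, GCGTG on either strand, was found in the window of Lect2 and not in the other 6. It was found in 28.16% of all windows and 39.7% of those whose gene was measured. These letters describe the windows and do not show binding.

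Recovered reads per library ran from 34260782 to 40427855. BDL replicate 1 and BDL_H replicate 2 stood apart: the median gene had a log2(FPKM + 1) of 2.48 and 2.56 there, against 2.81 to 3.06 in the other 10 libraries. Abcb4 was at 129 to 181 FPKM in the 6 MDR and MDR_H libraries and at 52.8 to 178 FPKM in the 6 BDL and BDL_H libraries. BDL replicate 1 (52.8 FPKM) and BDL_H replicate 2 (72.1 FPKM) were the lowest. The other BDL_H and BDL libraries were at 152 to 178 FPKM. The level of the whole gene therefore does not set the libraries labelled MDR apart. Which exons these reads came from was not analysed here. The 4 Y-linked genes Ddx3y, Eif2s3y, Kdm5d and Uty together were at 0.016 FPKM or less in MDR_H replicates 1 to 3 and MDR replicates 2 and 3, 20.1 FPKM in MDR replicate 1, and 16.1 to 19.6 FPKM in all BDL_H and BDL libraries. Differences between MDR_H and BDL_H therefore cannot be told apart from this difference in Y-linked reads, and those between MDR and BDL can be checked against it in 1 MDR library. Ligation, the Abcb4 mutation as assigned above and the length of HDCA treatment also differ between the models and cannot be told apart, and the age of the ligated mice was not given in the sources used here.

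The 10 genes covered a wide span of levels. Per length, the median over the 12 libraries was 2142 FPKM for Cyp2e1, 439 for Oat, 401 for Glul, 184 for Cyp1a2 and 40.2 for Lect2. Slc1a2 had a median of 10.6 FPKM, Rhbg 7.61, Tbx3 3.29, Axin2 1.84 and Lgr5 1.11. The lowest counts behind these values were 104 recovered reads for Lgr5 and 184 for Axin2, in BDL replicate 1 and BDL_H replicate 3.

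**Figure D1:**
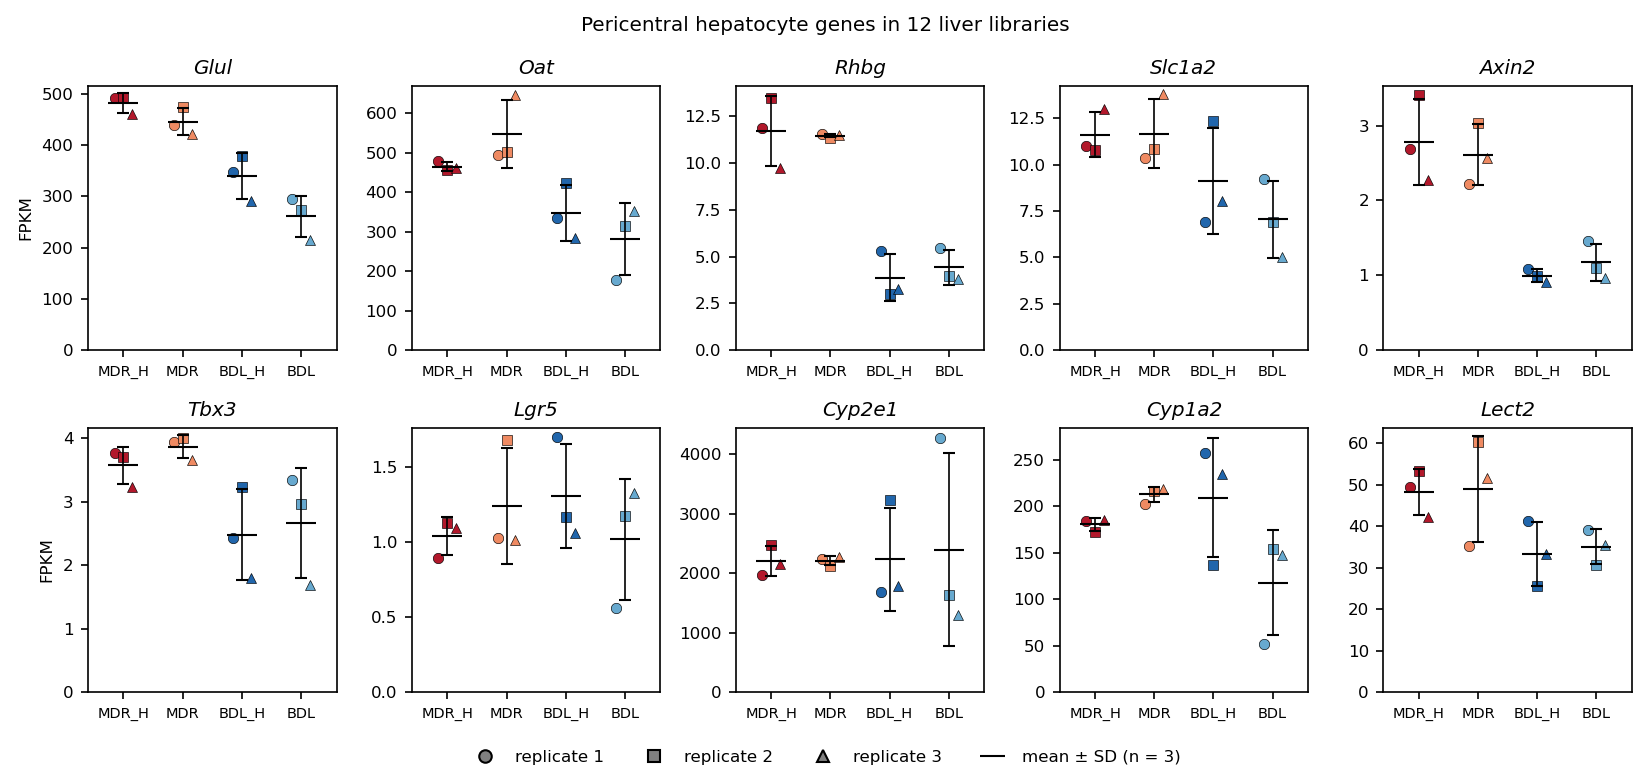
FPKM of the 10 pericentral genes, 1 panel a gene with its own axis from 0, in the groups MDR_H, MDR, BDL_H and BDL; points are libraries with a shape for each replicate number, and the line and bar are the mean and SD (n = 3). For Glul, Oat, Rhbg and Axin2 all 6 MDR_H and MDR points lie above all 6 BDL_H and BDL points, while the other 6 genes overlap between the models.

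Genes of ammonium capture, ornithine use and Wnt feedback were higher in untreated MDR livers than in untreated BDL livers. Rhbg, Glul, Axin2 and Oat rose, 4 of the 10 genes, with folds of the mean FPKM between 1.71 and 2.59 (limma with trend on log2(FPKM + 1), two-sided, adjusted by Benjamini-Hochberg over 10805 genes, called at an adjusted p under 0.05). None of the 10 was called lower. Among all genes tested, 15.1% were called higher and 1.07% lower, 16.2% in all. The median log2 difference was 0.70 for the 10 genes and 0.25 for all genes tested. The tests and intervals given here are against 0 and do not take off this 0.25. With it taken off, the 4 called genes differed by 0.96 (Rhbg), 0.76 (Oat), 0.53 (Glul) and 0.48 (Axin2). Lgr5 (-0.09) and Cyp2e1 (-0.17) were then below 0. A difference on this scale understates the change of genes with a low level.

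Glul encodes glutamine synthetase, which joins ammonium to glutamate. Its level was 492, 495 and 460 FPKM in MDR_H replicates 1 to 3 and 440, 475 and 423 FPKM in MDR. It was 348, 380 and 292 FPKM in BDL_H and 294, 273 and 215 FPKM in BDL. The lowest MDR_H or MDR library stood above the highest BDL_H or BDL library, and the spread within a group was 3.96 to 15.6% of the mean. Glul was 1.71-fold higher in MDR than in BDL, with a log2 difference of 0.78 ± 0.14 (SE; limma adjusted p = 0.0072). Between MDR_H and BDL_H the groups did not overlap either, and the log2 difference of 0.51 ± 0.14 missed the threshold (limma adjusted p = 0.0516). It passed without BDL replicate 1 (adjusted p = 0.0297) and without BDL replicate 3 (adjusted p = 0.0460), which changes the shared estimate of spread and not the difference.

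Rhbg encodes an ammonium transporter of the hepatocyte membrane. It had 11.9, 13.5 and 9.74 FPKM in MDR_H and 11.5, 11.4 and 11.5 FPKM in MDR. It had 5.31, 3.02 and 3.28 FPKM in BDL_H and 5.47, 3.98 and 3.80 FPKM in BDL. Every MDR_H and MDR library was above 9.7 FPKM and every BDL_H and BDL library below 5.5 FPKM. The log2 difference was 1.21 ± 0.19 for MDR against BDL (limma adjusted p = 0.0035), a 2.59-fold higher mean. For MDR_H against BDL_H it was 1.40 ± 0.19 (limma adjusted p = 0.0033), a 3.02-fold higher mean. MDR replicate 1, the MDR library with Y-linked reads, had 11.54 FPKM, beside 11.37 and 11.48 FPKM in the other MDR libraries.

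Oat encodes ornithine aminotransferase, which turns ornithine into glutamate semialdehyde and supplies glutamate for glutamine. It had 478, 455 and 461 FPKM in MDR_H and 495, 502 and 646 FPKM in MDR. It had 334, 423 and 285 FPKM in BDL_H and 177, 316 and 351 FPKM in BDL. The 6 MDR_H and MDR libraries were again all above the 6 BDL_H and BDL libraries, and the lowest value belonged to BDL replicate 1. Oat was 1.95-fold higher in MDR than in BDL, with a log2 difference of 1.01 ± 0.24 (limma adjusted p = 0.0189). That call was lost without MDR replicate 2 (adjusted p = 0.0604) and without MDR replicate 3 (adjusted p = 0.0747). For MDR_H against BDL_H the log2 difference was 0.44 ± 0.24 (limma adjusted p = 0.251).

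Slc1a2 encodes a glutamate transporter that takes up the other substrate of glutamine synthetase. It had 11.0, 10.8 and 13.0 FPKM in MDR_H and 10.4, 10.9 and 13.8 FPKM in MDR. It had 6.91, 12.4 and 8.06 FPKM in BDL_H and 9.22, 6.90 and 5.05 FPKM in BDL. BDL_H replicate 2 reached the MDR range, and MDR and BDL did not overlap. The log2 difference of MDR against BDL was 0.68 with a 95% interval of 0.19 to 1.16 and did not pass the test (limma adjusted p = 0.0589). It passed without BDL replicate 1 (0.86, adjusted p = 0.0332) and without BDL_H replicate 2 (0.68, adjusted p = 0.0288). It was 0.35 in MDR_H against BDL_H, with an interval of -0.14 to 0.84.

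Axin2 encodes a scaffold protein that limits β-catenin and is itself switched on by Wnt signalling. It had 2.69, 3.40 and 2.27 FPKM in MDR_H and 2.22, 3.04 and 2.57 FPKM in MDR. It had 1.08, 0.996 and 0.907 FPKM in BDL_H and 1.45, 1.10 and 0.967 FPKM in BDL, so the 2 models did not overlap. The mean was 2.23-fold higher in MDR than in BDL, with a log2 difference of 0.73 ± 0.14 (limma adjusted p = 0.0086). In MDR_H it was 2.80-fold higher than in BDL_H, with a log2 difference of 0.92 ± 0.14 (limma adjusted p = 0.0074). Axin2 and Rhbg were the members called in both comparisons, where 5.53% of all genes tested were called higher in both. The comparisons share no library in their group means, but both tests rest on the spread pooled over all groups.

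Tbx3 encodes a transcription factor whose expression in mouse liver follows β-catenin. It had 3.77, 3.71 and 3.24 FPKM in MDR_H, 3.94, 4.00 and 3.66 FPKM in MDR, 2.42, 3.24 and 1.79 FPKM in BDL_H and 3.34, 2.97 and 1.69 FPKM in BDL. The untreated groups did not overlap, nor did the treated ones (3.2395 FPKM was the lowest MDR_H value and 3.2362 FPKM the highest BDL_H value). The log2 differences were 0.44 for MDR against BDL (95% interval 0.02 to 0.85) and 0.41 for MDR_H against BDL_H (interval -0.0023 to 0.83), and neither passed the test (limma adjusted p = 0.128 and 0.179).

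Lgr5 encodes a receptor for R-spondins, which strengthen Wnt signalling. Its levels were the lowest of the 10 genes, at 0.897, 1.13 and 1.09 FPKM in MDR_H, 1.02, 1.68 and 1.01 FPKM in MDR, 1.70, 1.16 and 1.06 FPKM in BDL_H and 0.563, 1.17 and 1.33 FPKM in BDL. All groups overlapped. The log2 difference was 0.16 for MDR against BDL (95% interval -0.23 to 0.55) and -0.17 for MDR_H against BDL_H (interval -0.56 to 0.22).

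Cyp2e1 encodes a P450 enzyme that oxidises ethanol and acetaminophen. It was the highest of the 10 genes, with 1972, 2478 and 2156 FPKM in MDR_H, 2235, 2129 and 2267 FPKM in MDR, 1693, 3239 and 1783 FPKM in BDL_H and 4270, 1634 and 1291 FPKM in BDL. The spread within a group was 3.27% of the mean in MDR and 68.0% in BDL. Its highest values belonged to BDL replicate 1 and BDL_H replicate 2, the libraries that stood apart, and each was above every MDR_H and MDR library. The other 4 BDL_H and BDL libraries were below every MDR_H and MDR library. The log2 difference was 0.09 for MDR against BDL (95% interval -0.75 to 0.93) and 0.04 for MDR_H against BDL_H (interval -0.80 to 0.87).

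Cyp1a2 encodes a P450 enzyme that oxidises caffeine and other aromatic compounds and is induced through the aryl hydrocarbon receptor. It had 184, 172 and 185 FPKM in MDR_H, 203, 217 and 218 FPKM in MDR, 257, 136 and 234 FPKM in BDL_H and 52.2, 153 and 147 FPKM in BDL. BDL replicate 1 and BDL_H replicate 2 were the lowest libraries of their groups for Cyp1a2, while they were the highest for Cyp2e1. Cyp1a2 was 1.81-fold higher in MDR than in BDL with no overlap, and the log2 difference of 1.00 ± 0.36 did not pass the test (limma adjusted p = 0.0749). Without BDL replicate 1 it was 0.50 (adjusted p = 0.169). The treated groups overlapped, with a log2 difference of -0.16 for MDR_H against BDL_H (95% interval -0.94 to 0.62).

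**Figure D2:**
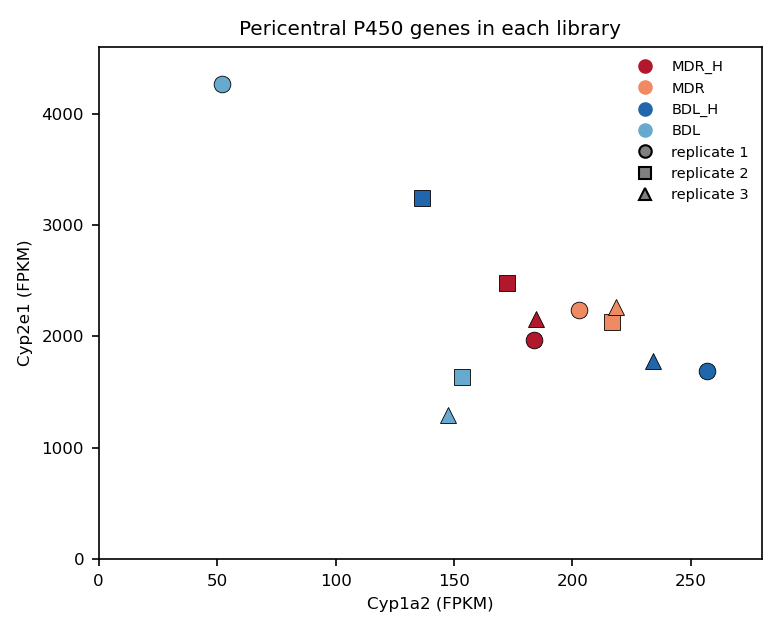
Cyp2e1 (y axis, FPKM) against Cyp1a2 (x axis, FPKM) in each of the 12 libraries, with colours for the 4 groups and shapes for replicate numbers. The 6 MDR_H and MDR libraries sit together between 172 and 218 FPKM of Cyp1a2 and 1972 and 2478 FPKM of Cyp2e1; BDL replicate 1 lies far from them at 52.2 and 4270 FPKM.

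Lect2 encodes a protein that hepatocytes secrete, and in mouse liver its gene depends on β-catenin. It had 49.3, 53.2 and 42.3 FPKM in MDR_H, 35.1, 60.3 and 51.6 FPKM in MDR, 41.2, 25.6 and 33.2 FPKM in BDL_H and 39.1, 30.7 and 35.4 FPKM in BDL. MDR replicate 1 fell inside the BDL range, and the treated groups did not overlap. The log2 difference was 0.44 for MDR against BDL (95% interval -0.02 to 0.91) and 0.54 for MDR_H against BDL_H (interval 0.08 to 1.01), and neither passed the test (limma adjusted p = 0.162 and 0.125).

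Over the whole set, all 10 log2 differences were positive in MDR against BDL, as were 83.6% of all genes tested. The mean FPKM of Cyp2e1 was nonetheless lower in MDR (2210) than in BDL (2398), and in MDR_H (2202) than in BDL_H (2238). In MDR against BDL 7 of the 10 had groups that did not overlap, with MDR higher, as did 39.2% of all genes. Under median-of-ratios scaling Cyp2e1 and Lgr5 turned negative. In MDR_H against BDL_H, 8 of the 10 were positive and 6 did not overlap, with MDR_H higher, against 77% and 32.4% of all genes. There 2 of the 10 were called higher and none lower, where 7.36% of all genes were called higher and 8.29% in all. The median log2 difference was 0.43 for the 10 genes and 0.20 for all genes tested. For Glul, Oat, Rhbg and Axin2 all 6 MDR_H and MDR libraries were above all 6 BDL_H and BDL libraries, as for 19.4% of all genes.

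The scale on which libraries are compared moved these calls. With median-of-ratios scaling the median gene differed by -0.05 between MDR and BDL, and Rhbg was the member still called (log2 difference 0.89, limma adjusted p = 0.0216), while Glul (0.41, adjusted p = 0.278), Oat (0.64, adjusted p = 0.12) and Axin2 (0.49, adjusted p = 0.071) were not. Between MDR_H and BDL_H, Rhbg (1.17, adjusted p = 0.0127) and Axin2 (0.74, adjusted p = 0.0246) were called on that scale too. Relative to the mean log2 level of 11 hepatocyte genes of no strong zone, 7 members were called in MDR against BDL and 3 in MDR_H against BDL_H. On that scale 26.9% and 4.76% of all genes were called higher, beside 15.1% and 7.36% on the deposited scale. Without BDL replicate 1 and BDL_H replicate 2, 8 members were called higher in MDR against BDL, all but Lect2 and Lgr5. Of all genes 17.3% were then called higher. Between MDR_H and BDL_H 5 members were then called higher (Axin2, Rhbg, Glul, Oat and Slc1a2) and Cyp1a2 lower (-0.44, limma adjusted p = 0.0190). Of all genes 8.45% were called higher there. With MDR replicate 1 alone as the MDR group, chosen after its Y-linked reads were seen, no member and 4 genes in all were called, a fit in which the single library is assumed to vary like the other groups. The log2 differences were then 1.22 for Rhbg, 0.76 for Glul, 0.87 for Oat and 0.57 for Axin2.

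**Figure D3:**
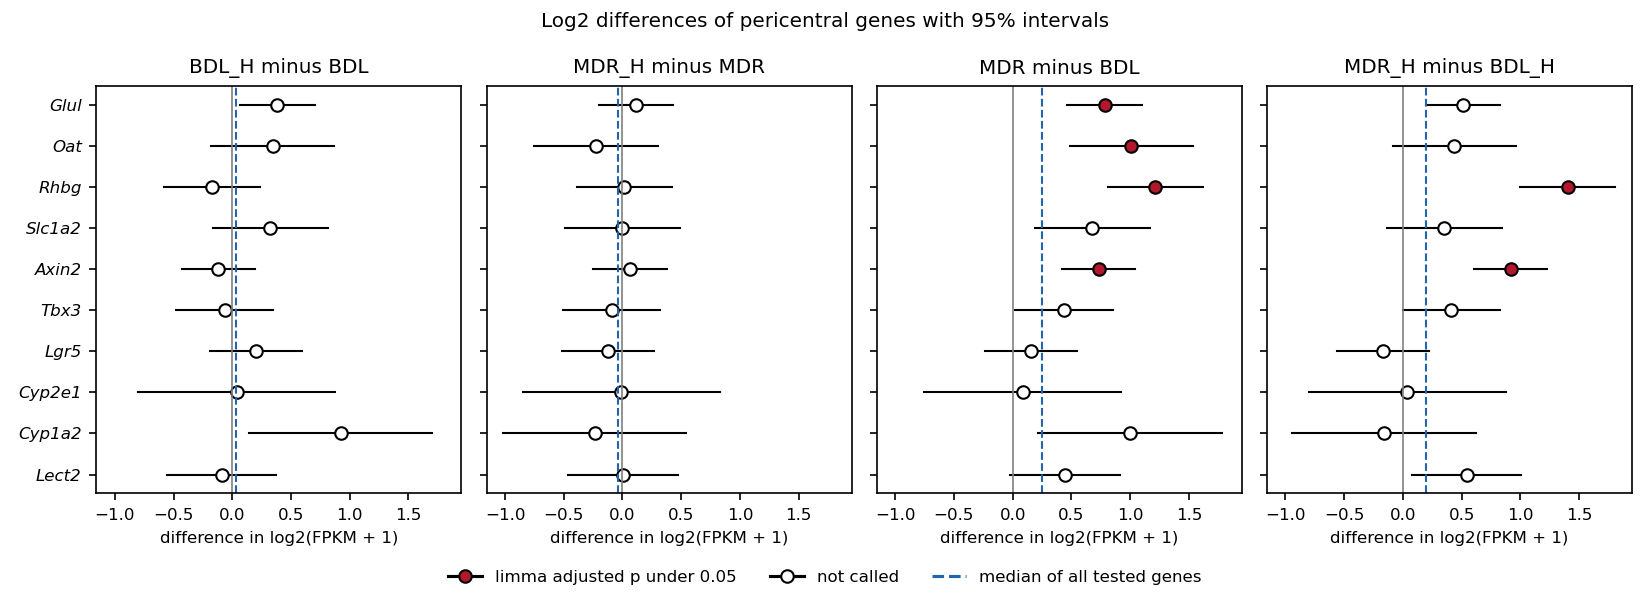
Log2 difference of each pericentral gene in log2(FPKM + 1) with its 95% interval (limma), for BDL_H minus BDL, MDR_H minus MDR, MDR minus BDL and MDR_H minus BDL_H; filled points passed an adjusted p of 0.05 and the dashed line is the median of all genes tested. The 4 filled points of MDR minus BDL lie between 0.73 and 1.21, and no point is filled for either HDCA comparison.

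HDCA changed none of the 10 genes past the test in either model. In BDL_H against BDL 0 of the 10 and 0 of 10805 genes were called by limma, and 2 of the 10 had an unadjusted p under 0.05, as did 2.25% of all genes. These were Glul and Cyp1a2. Glul averaged 340 ± 44.5 FPKM in BDL_H and 261 ± 40.8 FPKM in BDL (SD, n = 3 each). BDL_H replicate 3, at 292 FPKM, was below BDL replicate 1, at 294 FPKM, so the groups overlapped by that pair. The log2 difference was 0.38 with a 95% interval of 0.07 to 0.70 (limma unadjusted p = 0.0217, adjusted p = 1.00). Cyp1a2 averaged 209 ± 63.9 FPKM in BDL_H and 118 ± 56.8 FPKM in BDL, with a log2 difference of 0.92 and an interval of 0.14 to 1.70 (limma unadjusted p = 0.0243, adjusted p = 1.00). Without BDL replicate 1 the Cyp1a2 difference was 0.42. The other 8 genes had log2 differences between -0.17 for Rhbg and 0.34 for Oat, and their intervals all contained 0. For Cyp2e1 the interval ran from -0.80 to 0.88, so a change of that size in either direction was not detectable here. By limma-voom, run on recovered reads, 0 genes were called as well.

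In MDR_H against MDR 0 of the 10 and 0 of 10805 genes were called by limma or by limma-voom, and 0 of the 10 had an unadjusted p under 0.05, as did 0.565% of all genes. Oat averaged 465 ± 11.8 FPKM in MDR_H and 548 ± 85.1 FPKM in MDR, and Cyp1a2 averaged 180 ± 6.92 FPKM in MDR_H and 213 ± 8.49 FPKM in MDR (SD, n = 3 each). Both pairs of groups did not overlap, with MDR_H below MDR, 2 of the 10 genes, against 4.6% of all genes. Their log2 differences were -0.23 for Oat (95% interval -0.75 to 0.30) and -0.24 for Cyp1a2 (interval -1.02 to 0.54), and the unadjusted limma p-values were 0.365 and 0.521. These intervals and p-values rest on a spread shared by all groups. For Cyp1a2 the spread was 48.3% of the mean in BDL, 30.6% in BDL_H, 3.99% in MDR and 3.84% in MDR_H. With the MDR_H and MDR libraries alone 0 genes were called as well. Glul, at 482 ± 19.1 FPKM in MDR_H and 446 ± 26.6 FPKM in MDR, had a log2 difference of 0.11 with an interval of -0.20 to 0.43. The remaining 7 genes lay between -0.12 for Lgr5 and 0.06 for Axin2.

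The effect of HDCA in MDR minus its effect in BDL was called for 0 of the 10 genes and 0 of all genes tested. Cyp1a2 had the lowest p of the 10, with a difference of -1.16 ± 0.50 on the log2 scale (limma unadjusted p = 0.041, adjusted p = 1.00), and 1.85% of all genes had an unadjusted p under 0.05. For Glul the difference of effects was -0.27, with a 95% interval of -0.72 to 0.18.

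Genes outside the 10 were named for their likeness to Glul where their deviations from the group means of log2(FPKM + 1) followed those of Glul over the 12 libraries. Among the tested genes outside the 10, the 5 highest Pearson correlations were 0.876 for Arfgap2, 0.855 for Ufd1, 0.846 for Dnajc30, 0.827 for Zfp612 and 0.827 for Prodh. Prodh encodes proline dehydrogenase, which starts the breakdown of proline towards glutamate. Within the 10 genes, Tbx3 had a correlation of 0.974 with Glul by the same measure, above these 5. The correlations describe 12 libraries that share depth and composition.

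Some other targets and parts of Wnt signalling were called higher in MDR livers than in BDL livers. Of 11 targets listed, 6 were tested. Beside 15.1% of all genes tested, 3 of the 6 were called higher in MDR against BDL and none lower, with a list median of 0.86. They were Tnfrsf19 (log2 difference 0.99), the feedback inhibitor Nkd1 (0.90) and Rnf43 (0.82), a ligase that removes Wnt receptors, with limma adjusted p-values of 0.0078, 0.0057 and 0.0055. Nkd1 had 2.42, 2.90 and 1.94 FPKM in MDR and 0.594, 1.04 and 0.868 FPKM in BDL, with no overlap. Notum, a secreted enzyme that inactivates Wnt ligands, differed by 0.43 (95% interval -0.04 to 0.90) and did not pass. In MDR_H against BDL_H, where 7.36% of all genes were called higher, 2 of the 6 were called higher and none lower. These were Nkd1 (0.75, limma adjusted p = 0.0218) and Tnfrsf19 (0.87, adjusted p = 0.0245). Each of these 2 calls depended on single libraries: both were lost without BDL_H replicate 2, MDR_H replicate 2 or MDR_H replicate 3, and Tnfrsf19 also without MDR_H replicate 1, with adjusted p up to 0.0791 for Nkd1 and 0.0848 for Tnfrsf19.

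Among ligands, receptors and core parts, 22 of 26 listed genes were tested, and 8 of the 22 were called higher in MDR against BDL and none lower, with a list median of 0.36. Of all genes tested 15.1% were called higher, with a median of 0.25. The receptors Fzd1 (1.42), Fzd8 (0.88) and Fzd4 (0.87) and Wls (1.18), which carries Wnt ligands to the cell surface, led, with limma adjusted p-values of 0.0055, 0.0048, 0.0091 and 0.0075. None of those 4 calls was lost in any of the 12 refits without 1 library. The ligand Wnt2 and Rspo3, an R-spondin, both made by central vein endothelium, were chosen after their values were seen. Wnt2 had 2.05, 3.51 and 2.78 FPKM in MDR and 0.799, 1.21 and 2.07 FPKM in BDL, overlapping by 1 library. Its log2 difference was 0.70 (limma adjusted p = 0.0495), and the call was lost in 9 of the 12 refits, all but those without BDL replicate 3, BDL_H replicate 2 or MDR replicate 1 (adjusted p up to 0.186). Rspo3 had 2.06, 3.11 and 2.97 FPKM in MDR and 0.766, 1.12 and 1.81 FPKM in BDL, with a log2 difference of 0.75 (limma adjusted p = 0.0317) that was lost without BDL replicate 1 or 2 or MDR replicate 2 or 3 (adjusted p up to 0.125). Of the 22, 5 were called higher in MDR_H against BDL_H, Fzd1, Fzd4, Fzd6, Fzd8 and Wls, and each lost its call without BDL_H replicate 1 or 2 or MDR_H replicate 2 or 3 (adjusted p up to 0.147). In that comparison 7.36% of all genes were called higher. With median-of-ratios scaling 3 of the 22 were called higher in MDR against BDL, and in MDR_H against BDL_H 2 higher and 2 lower. On that scale 5.92% and 3.08% of all genes were called higher in these comparisons.

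Of 22 pericentral genes outside the 10, 3 were called in MDR against BDL, beside 16.2% of all genes tested. The 2 called higher were Aldh1a1 (0.60), which oxidises retinal, and Rgn (0.58), which encodes regucalcin, with limma adjusted p-values of 0.0177 and 0.0263. Cyp2a5, a P450 enzyme, was called lower (-1.04, limma adjusted p = 0.0178). The list median was 0.13, below the 0.25 of all genes. Cyp2a5 had 192, 218 and 221 FPKM in MDR and 553, 403 and 366 FPKM in BDL, and 138, 193 and 127 FPKM in MDR_H and 423, 324 and 616 FPKM in BDL_H. It was lower in MDR_H than in BDL_H as well (-1.54, limma adjusted p = 0.0079). Slc13a3, a dicarboxylate transporter, was called higher there (0.85, limma adjusted p = 0.0440), a call lost in 9 of the 12 refits (adjusted p up to 0.138), so 2 of the 22 were called, beside 8.29% of all genes. All 3 calls in MDR against BDL lost significance without MDR replicate 2 or MDR replicate 3, with adjusted p-values up to 0.065 for Aldh1a1, 0.0885 for Rgn and 0.063 for Cyp2a5. Rgn also lost it without BDL replicate 1, BDL replicate 2 or MDR replicate 1. With median-of-ratios scaling 3 of the 22 were called lower and none higher in each comparison. On that scale 10.4% of all genes were called in MDR against BDL and 6.52% in MDR_H against BDL_H.

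**Figure D4:**
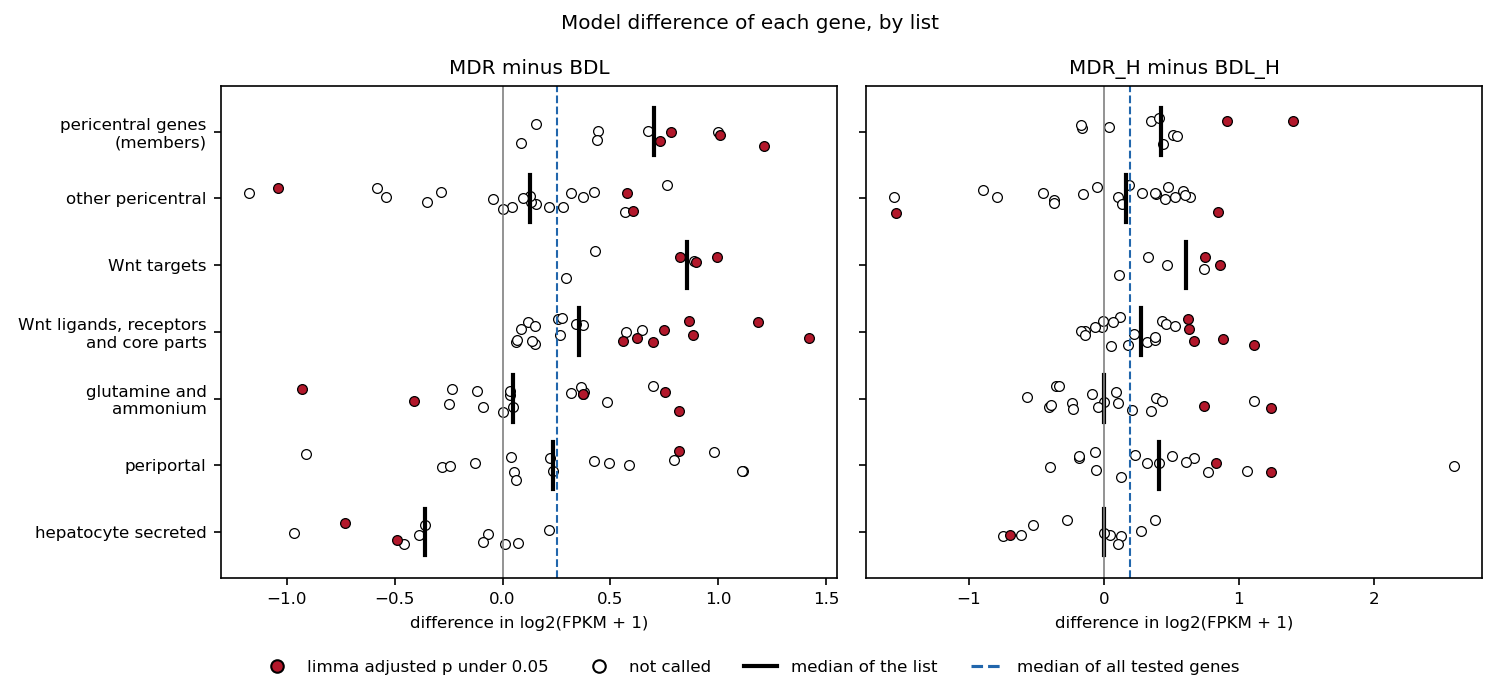
Log2 difference of every tested gene in 7 lists, 1 row a list, for MDR minus BDL and MDR_H minus BDL_H; filled points passed an adjusted p of 0.05 (limma), the black bar is the list's median and the dashed line the median of all genes tested. The pericentral members, the Wnt targets and the Wnt ligands, receptors and core parts have their medians right of the dashed line in both panels. The periportal genes have theirs right of it in MDR_H minus BDL_H (0.41). The hepatocyte genes of no strong zone have theirs left of it in both panels.

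Other genes of glutamine, glutamate and ammonium handling were called in both directions. In MDR against BDL 3 of 19 were called higher and 2 lower, beside 15.1% and 1.07% of all genes tested. The list median was 0.05, below the 0.25 of all genes. Gls2, the liver glutaminase of periportal cells, differed by 0.82 (limma adjusted p = 0.0181), Otc of the urea cycle by 0.75 (adjusted p = 0.0142) and Glud1, glutamate dehydrogenase, by 0.37 (adjusted p = 0.0471). The glutamine transporters Slc38a2 (-0.93, limma adjusted p = 0.0359) and Slc38a3 (-0.41, adjusted p = 0.0258) were called lower. All 5 calls were lost without BDL replicate 2 or MDR replicate 2, with adjusted p up to 0.182 for Glud1. Gls2 (1.24, limma adjusted p = 0.0073) and Otc (0.75, adjusted p = 0.0260) were called in MDR_H against BDL_H, and Gls2 kept its call in all 12 refits while Otc lost it without BDL_H replicate 2 or MDR_H replicate 1 or 2 (adjusted p up to 0.083). With median-of-ratios scaling 0 of the 19 were called higher and 2 lower in each of these comparisons, and Gls2 missed the threshold in MDR_H against BDL_H (0.96, limma adjusted p = 0.0627) and in MDR against BDL (0.45, adjusted p = 0.334). Of 17 periportal genes, Gls2 was the call in MDR against BDL, with a list median of 0.24, beside 15.1% of all genes called higher. For MDR_H against BDL_H Gls2 and Pigr (0.83, limma adjusted p = 0.0215) were called higher, with a list median of 0.41, and Pigr lost its call without any 1 of the MDR_H libraries (adjusted p up to 0.0713). In that comparison 7.36% of all genes were called higher. On the median-of-ratios scale 0 of the 17 were called in either comparison. Of 9 listed targets of the aryl hydrocarbon receptor and partners of P450 enzymes, 5 were tested, and 0 were called in any comparison. The tested ones were Tiparp, Nqo1, Arnt, Cyb5a and Cyb5r3. The targets Cyp1a1, Cyp1b1, Ahrr and Aldh3a1 did not pass the filter on low values, so they were not tested. With HDCA, 0 genes of any list were called in either model.

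Some genes of other liver cells were called between the models too. Of 11 hepatocyte genes of no strong zone, 0 were called higher and 2 lower in MDR against BDL: Apoa1 (-0.73, limma adjusted p = 0.0306) and Ambp (-0.49, adjusted p = 0.0497), both lost without BDL replicate 2 or MDR replicate 2 or 3 among others (adjusted p up to 0.131 and 0.156). Called higher were 10 of 12 stellate cell and fibroblast genes, 7 of 12 endothelial, 6 of 11 cholangiocyte, 2 of 12 macrophage and 3 of 8 lymphoid and neutrophil genes, and none of these lower. Among all genes tested 15.1% were called higher and 1.07% lower, so the macrophage count was near the share of all genes. With median-of-ratios scaling the counts called higher were 9 stellate and fibroblast, 3 endothelial, 4 cholangiocyte (and 1 lower), 2 macrophage and 2 lymphoid and neutrophil genes. On that scale 5.92% of all genes were called higher. Scaled to the hepatocyte list, 9 endothelial and 6 macrophage genes were called higher, beside 26.9% of all genes. Without BDL replicate 1 and BDL_H replicate 2, 6 cholangiocyte genes were called higher and 2 lower, and 2 macrophage genes higher and 1 lower. Of all genes 17.3% were then called higher. In MDR_H against BDL_H 7 of 12 stellate and fibroblast, 0 of 12 endothelial, 3 of 11 cholangiocyte, 1 of 12 macrophage and 1 of 8 lymphoid and neutrophil genes were called higher, and 1 endothelial gene (Thbd) and 1 neutrophil gene (Retnlg) lower. Among all genes 7.36% were called higher and 0.935% lower in that comparison. The Thbd call was lost in 9 of the 12 refits without 1 library (adjusted p up to 0.138), that of Retnlg without MDR_H replicate 2 (adjusted p = 0.0532), and those of the macrophage gene C1qa and the T cell gene Cd3g in 7 of 12 each (adjusted p up to 0.12 and 0.105). Summed levels of the stellate and fibroblast list were 284 to 561 FPKM in MDR_H and MDR libraries and 73.0 to 249 FPKM in BDL_H and BDL libraries. Those of the endothelial list were 175 to 237 FPKM in MDR_H and MDR and 36.3 to 162 FPKM in BDL_H and BDL, the lowest in BDL replicate 1. The hepatocyte list summed to 42719 to 59704 FPKM in MDR_H and MDR and 59039 to 73594 FPKM in BDL_H and BDL. Cholangiocyte sums overlapped, at 820 to 1557 FPKM in MDR_H and MDR and 625 to 2310 FPKM in BDL_H and BDL, as did macrophage sums, at 921 to 1834 FPKM in MDR_H and MDR and 361 to 1129 FPKM in BDL_H and BDL. Cd8a was at 0 in 1 library and Ms4a1 in 2 libraries. In whole liver, fewer cells of a type and less RNA per cell cannot be told apart, and the part of these markers in the pericentral differences was not tested.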

How the data were processed

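Per the labels' protocols, polyA RNA libraries of mouse liver were made with a VAHTS kit. HISAT2 2.0.5, fastp, CASAVA 1.8, DESeq2 1.20.0, featureCounts 1.5.0-p3 and the build GRCm38 (mm10) stand in the submitters' processing notes, with no order. For the annotation release and the strand setting, the sources used here give nothing, and without strand, antisense reads are counted with the gene. The authors deposited 1 table of FPKM values. Within 0.02 of a read, 99.99% of genes (16968 of 16970) gave whole reads in every library. The 10 most abundant genes held 14.4 to 21.4% of reads, and this share enters every FPKM.

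Values were tested as log2(FPKM + 1) with limma 3.58.1 (R 4.3.3), with trend, as 4 group means over 12 libraries (8 residual degrees of freedom), two-sided. Genes at FPKM 1 or more in at least 3 libraries, 10805 in all, were adjusted together by Benjamini-Hochberg. The script was tested on simulated data. Alternatives were a pseudocount of 0.1, no filter, a mean FPKM of at least 5, median-of-ratios scaling, scaling to hepatocyte genes, limma-voom on recovered reads, a replicate block, the compared libraries alone, and leaving out libraries.

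Replicate numbers were shared by MDR_H and MDR samples in the titles, and same-numbered libraries deviated together (correlations 0.312 to 0.548). That does not show that they are pairs. The differently numbered BDL_H replicate 2 and BDL replicate 1 reached 0.548 too. Y-linked reads differed between MDR replicate 1 (20.1 FPKM) and MDR_H replicate 1 (0.016 FPKM). No pairing entered the main test. Same-numbered correlations were -0.430 to 0.431 for BDL_H and BDL, -0.244 to -0.149 for MDR and BDL and -0.228 to -0.034 for MDR_H and BDL_H. The 10 genes, the lists and the tests were chosen with earlier results of these data known. Named genes are the 10, up to 4 genes a list with the smallest p in a comparison, and the 5 with deviations most like Glul.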

Additional observations from a re-analysis of the deposited data

How the results depend on the processing

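Many calls between models depended on scaling or on single libraries. Those of Rhbg and Axin2 in both comparisons and of Glul in MDR against BDL were kept in all 12 refits without 1 library. For HDCA 0 genes were called in either model, or for the difference of its effects, under any alternative. In MDR against BDL 1746 genes were called, and 616 with a mean FPKM of at least 5, 1126 with median-of-ratios scaling, 2964 scaled to the hepatocyte list, 729 with the compared libraries alone, 4 with MDR replicate 1 alone and 489 to 2346 without 1 library (fewest without MDR replicate 2). The 4 members called became 1 with median-of-ratios scaling, 7 scaled to the hepatocyte list, 8 without BDL replicate 1 and BDL_H replicate 2 together, 0 with MDR replicate 1 alone and 3 to 5 without 1 library. In MDR_H against BDL_H 896 genes were called, and 436 with a mean FPKM of at least 5, 559 scaled to the hepatocyte list, 589 with the replicate block, 542 with the compared libraries alone and 167 to 1550 without 1 library (fewest without MDR_H replicate 2). The 2 members called became 1 with a mean FPKM of at least 5, which leaves out Axin2, 6 without BDL replicate 1 and BDL_H replicate 2 together and 2 to 3 without 1 library. Without those 2 libraries together 2231 genes were called in MDR against BDL and 1274 in MDR_H against BDL_H. With the replicate block Glul was called in MDR_H against BDL_H (0.51, limma adjusted p = 0.0472). That block ties same-numbered libraries of all groups together, a pairing that these data do not show. Between MDR_H and MDR the block changed no call. Apart from the settings named, the cause of these moves was not tested.

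Signs turned for these log2 differences, none of which was called with all 12 libraries on the deposited scale. With median-of-ratios scaling Cyp2e1 was at -0.011 for HDCA in BDL, 0.031 for HDCA in MDR, -0.28 for MDR against BDL and -0.24 for MDR_H against BDL_H; Slc1a2 was at 0.038 for HDCA in MDR, and Lgr5 at -0.024 and Slc13a3 at -0.25 for MDR against BDL. Scaled to the hepatocyte list, Lect2 (-0.069) and Rhbg (-0.054) turned for HDCA in MDR, Thbd (0.18) for MDR against BDL and Cyp1a2 (0.011) for MDR_H against BDL_H. Without BDL replicate 1 and BDL_H replicate 2 together, Lect2 (0.16), Oat (-0.11) and Rhbg (0.087) turned for HDCA in BDL and Lgr5 (-0.017) for MDR against BDL. With MDR replicate 1 alone Slc13a3 was at -0.12. Leaving out 1 library gave, for HDCA in BDL, -0.30 to 0.56 for Cyp2e1, -0.25 to 0.081 for Lect2 and -0.27 to 0.083 for Tbx3. For HDCA in MDR it gave -0.050 to 0.16 for Axin2, -0.10 to 0.065 for Cyp2e1, -0.21 to 0.17 for Lect2, -0.19 to 0.013 for Lgr5, -0.084 to 0.13 for Rhbg and -0.080 to 0.12 for Slc1a2. For MDR against BDL it gave -0.26 to 0.60 for Cyp2e1, -0.017 to 0.27 for Lgr5, -0.059 to 0.38 for Slc13a3 and -0.33 to 0.19 for Thbd. For MDR_H against BDL_H it gave -0.44 to 0.012 for Cyp1a2 and -0.13 to 0.34 for Cyp2e1.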
